A study of Homo sapiens with 2 samples.

Results

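The cells described here are neural progenitor-like cells found in human inner ear organoids, in which SOX2 was detected together with HES5, SOX1 or PAX6 and in which otic, glial, mesenchymal and neuronal marker transcripts were low or not detected. They were chosen by counts of unique molecular identifiers (UMIs, each standing for 1 captured transcript) in each cell: at least 1 UMI of SOX2, at least 3 UMIs of HES5, SOX1 and PAX6 together, fewer than 5 UMIs of OC90, none of CDH19, and fewer than 3 of COL1A2 and of STMN2. Of 31818 cells kept in all, 376 met this rule. These were 312 of 21319 cells in the GelNB-CH library and 64 of 10499 cells in the Matrigel library. The kept cells, out of 32655 barcodes, had 1000 or more genes with a UMI and no more than 15% mitochondrially encoded UMIs.

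Both libraries came from organoids at day 40, made from WA25, a line of human embryonic stem cells, carrying a nuclear tdTomato reporter of SOX2, and only reporter-positive sorted cells were loaded. One group is labelled GelNB-CH, a hydrogel set by UV light, and the other Matrigel, a basement membrane extract. The growth text is the same for both libraries. In it the early aggregates received FGF-2, SB-431542, BMP-4 and growth factor-reduced Matrigel, then FGF-2 and LDN193189, then also CHIR99021, which activates the WNT pathway. It goes on with GelNB-CH embedding on day 11, CHIR99021 at 3 µM until day 18 and oDex at 0.02% on day 15, so the embedding of the Matrigel library is known only by its label. Each group was 1 library of 1 cell line, so no difference between the libraries could be tested, and all intervals below are 95% intervals that cover counting error only.

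Neural progenitors of the central nervous system (CNS) line the neural tube, divide at its inner surface and are kept from differentiating by NOTCH signalling, which acts through HES genes such as HES5. SOX1, SOX2 and SOX3 are the SOXB1 transcription factors of this tissue, and PAX6 marks progenitors of forebrain, hindbrain and spinal cord more than those of the dorsal midbrain. The inner ear arises from the otic placode, which lies beside the hindbrain, and organoid protocols that begin from pluripotent cells can also give neural tissue.

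Depth differed between the libraries and bears on every count of UMIs. The cells that met the rule had a median of 9578 UMIs in GelNB-CH (range 2540 to 27100) and 15708 in Matrigel (6705 to 43311), and 3507 and 4624 detected genes. Over all kept cells the medians were 9265 and 14403 UMIs, and the selected cells were near the depth of their own library. Barcodes shared by both libraries numbered 78 in all and 0 among the selected cells. Scrublet, a caller of doublets, marked 15 of the 312 GelNB-CH cells (4.81%) and 0 of the 64 Matrigel cells, against 15.7% and 6.51% of all kept cells.

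The rule was met by 1.46% (1.31 to 1.63) of kept cells in GelNB-CH against 0.610% (0.470 to 0.778) in Matrigel, a ratio of 2.40 (1.83 to 3.19). The ratio was 2.50 after every cell was thinned to 5000 UMIs and the rule applied to the thinned counts (0.993% and 0.397%), and 3.17 among cells of 8000 to 16000 UMIs. Without the limits on other markers the ratio was smaller. SOX2 together with at least 3 UMIs of the HES5, SOX1 and PAX6 sum was found in 752 GelNB-CH and 287 Matrigel cells, 3.53% and 2.73% of all kept, a ratio of 1.29. Of these, 41.5% in GelNB-CH and 22.3% in Matrigel passed the limits on OC90 (an otoconial protein gene of otic epithelium), CDH19 (a cadherin of peripheral glia), COL1A2 (a collagen of mesenchyme) and STMN2 (a neuronal gene). Counting a cell under each limit it failed, OC90 was too high in 171 GelNB-CH and 43 Matrigel cells, CDH19 in 88 and 115, COL1A2 in 298 and 184, and STMN2 in 55 and 17.

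The genes of the rule are given as a description, since they chose the cells. HES5 carried the selection: 310 of 312 GelNB-CH cells and all 64 Matrigel cells had a UMI of it, and without it 11 and 2 cells would have met the rule. SOX1 was detected in 36.5% (GelNB-CH) and 25% (Matrigel) of cells, and PAX6 in 6.09% and 12.5%. Summed counts divided by all UMIs of the same cells and scaled to CPM, a count unit that allows for depth, gave HES5 (ENSG00000197921, chr1:2528745-2530245, GRCh38) at 1983 CPM in GelNB-CH against 1322 CPM in Matrigel, SOX2 at 180 and 120 CPM, SOX1 at 48.1 and 24.2 CPM, and PAX6 at 6.83 and 11.6 CPM. The median sum of HES5, SOX1 and PAX6 was 15 UMIs in GelNB-CH and 11 in Matrigel. At the threshold, the 27 GelNB-CH cells with a sum of exactly 3 had FABP7 at 627 CPM, and the 26 cells just outside, with a sum of 2, had it at 573 CPM. In Matrigel the 4 cells at 3 had FABP7 at 27.6 CPM and the 14 cells at 2 had it at 58.5 CPM.

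Whether the label holds was checked by clustering the 376 cells and counting 20 further CNS progenitor markers outside the rule. Of 6 sub-clusters, 2 carried the label and 1 more held its markers beside neuronal genes. Sub-cluster 0 (132 cells) and sub-cluster 1 (125 cells) each had 17 of the 20 markers past the limits, and sub-cluster 3 (32 cells) had 13, among them SOX3, FABP7, RFX4, NES, CDH2 and PTPRZ1 in all 3. Sub-clusters 2, 4 and 5 had 6, 3 and 2 of the 20. RFX4 passed in all 6 sub-clusters, and SOX3 and FABP7 passed in sub-cluster 2 as well. None of the 10 mesenchyme, 15 otic or 6 cartilage markers passed in sub-clusters 0, 1 and 3. From lists of other cell types, NEFL, SLC1A2, SIX3 and OTX2 passed in sub-cluster 0, ELAVL3, SLC1A2 and OTX2 in sub-cluster 1, and OTX2, TFAP2B and 6 of 10 neuronal markers (DCX, TUBB3, ELAVL3, ELAVL4, NEFL and INA) in sub-cluster 3. The 10 leading genes of sub-cluster 3 included MYT1L, CHRNA3 and NEUROG2 and none of the progenitor markers, so it is left unnamed. Sub-clusters 0, 1 and 3 together are called CNS marker-rich below, and held 257 of the GelNB-CH cells (82.4%, 77.7 to 86.4) and 32 of the Matrigel cells (50%, 37.2 to 62.8). A marker passed with a UMI in at least 10% of a sub-cluster's cells and at least a 2-fold level over all kept cells. The CNS marker-rich set needed 10 of them and a larger share of this list past the limits than of any other cell type list, limits set after the data were seen. The rule had already limited OC90, CDH19, COL1A2 and STMN2, which are on the otic, peripheral glia, mesenchyme and neuronal lists. Low counts on those lists were therefore set in part by the selection.

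Sub-clusters 2, 4 and 5 did not carry the label and are named here only by their leading genes. Sub-cluster 2 (11 cells, all GelNB-CH, 3 of them doublet calls) had all 6 cartilage markers, with HAPLN1, a link protein of cartilage matrix, at 1537 CPM against 3.59 CPM in the other selected cells, and the matrix proteins MATN1 at 1370 CPM and ACAN at 737 CPM. Sub-cluster 4 (14 GelNB-CH and 15 Matrigel cells, 4 doublet calls) was led by TRHDE, THSD7B and EYS. It had NEUROD1, a neurogenic factor of cranial sensory neurons and other lineages, at 237 CPM, and EYA1, a placodal gene, at 481 CPM. Sub-cluster 5 (30 and 17 cells) was led by KRT19, CRYM and PAX2. KRT19, a keratin, had a UMI in 9 of its 47 cells, KRT17, KRT15 and KRT5 in 1 cell each, and PAX2, a factor of otic vesicle and midbrain-hindbrain boundary, in 23.

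**Figure D1:**
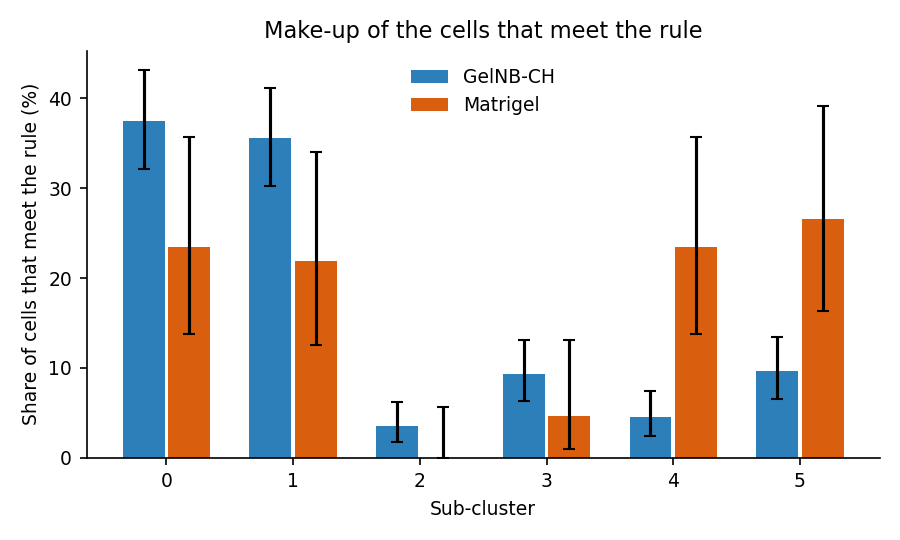
Share of the cells that met the rule (%, vertical axis) in each of the 6 sub-clusters (horizontal axis), for the GelNB-CH (312 cells) and Matrigel (64 cells) libraries; bars are shares and lines are exact Clopper-Pearson 95% intervals. Sub-clusters 0 and 1 hold 37.5% and 35.6% of GelNB-CH cells, and sub-clusters 4 and 5 hold 23.4% and 26.6% of Matrigel cells.

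Taken over all kept cells, the CNS marker-rich sub-clusters made up 1.21% (1.06 to 1.36) of the GelNB-CH library and 0.305% (0.209 to 0.430) of the Matrigel library, a ratio of 3.96 (2.73 to 5.90). The other sub-clusters made up 0.258% (0.194 to 0.336) and 0.305% (0.209 to 0.430), and these intervals overlap. With sub-clusters 0 and 1 only, the shares were 1.07% (228 cells) and 0.276% (29 cells), a ratio of 3.87. Both restrictions were made after the data were seen.

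**Figure D2:**
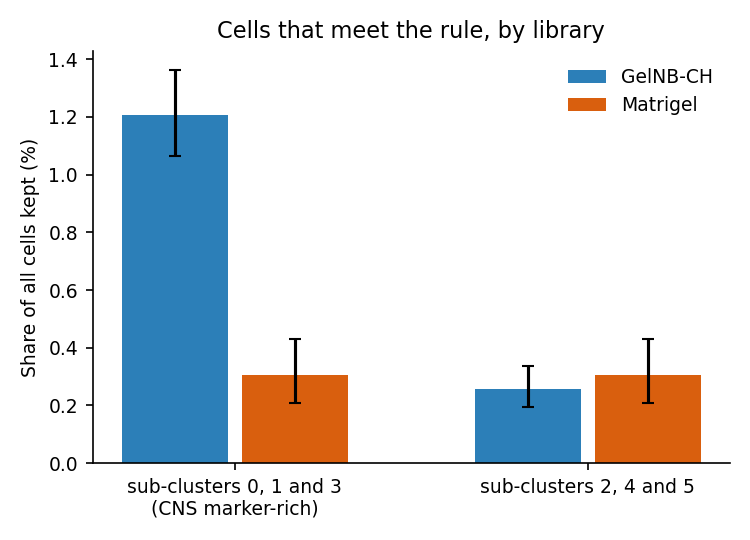
Share of all cells kept (%, vertical axis) that met the rule and fell in sub-clusters 0, 1 and 3 or in sub-clusters 2, 4 and 5, for each library; bars are shares and lines are exact Clopper-Pearson 95% intervals. The intervals of sub-clusters 0, 1 and 3 are 1.06 to 1.36% for GelNB-CH against 0.209 to 0.430% for Matrigel, and those of the other sub-clusters overlap.

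The 3 CNS marker-rich sub-clusters had different leading genes, and these genes formed the clusters, so their values are descriptions. The leading genes of sub-cluster 0 included PRPH and RSPO2, with RSPO2, a secreted enhancer of WNT signalling, at 141 CPM against 17.7 CPM in the other selected cells. DNAH7, a dynein heavy chain of cilia, was at 43.0 against 7.03 CPM. FABP7, a fatty acid binding protein of radial glia, was at 1031 CPM in sub-cluster 0 and at 494 and 490 CPM in sub-clusters 1 and 3. Sub-cluster 1 was led by mitotic genes, with PBK at 152 against 6.45 CPM and CCNB1 at 382 against 34.0 CPM, and all of its 125 cells were above the cycling limit of 5 UMIs of S, G2 and M phase genes per 10000. Sub-cluster 3 was led by MYT1L, a neuronal zinc finger factor, at 97.9 against 0.980 CPM, and DLL3, a NOTCH ligand of newly born neurons, was at 356 against 20.8 CPM. NEUROD4, a proneural factor, was at 278 CPM in sub-cluster 3 and at 0 and 5.18 CPM in sub-clusters 0 and 1.

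Cells above the cycling limit made up 61.9% (55.6 to 67.8) of the GelNB-CH and 59.4% (40.6 to 76.3) of the Matrigel CNS marker-rich cells. The same limit was passed by 24.3% and 23.5% of OC90-positive cells (6695 and 2197 cells), by 21.7% and 24.5% of CDH19-positive cells (428 and 278) and by 9.20% and 6.02% of STMN2-positive cells (1043 and 532), classes set by exclusive UMI limits on those genes. The intervals of the libraries overlapped in the CNS marker-rich cells, and both lay above the shares of the 3 classes. Over all selected cells the shares were 56.7% and 51.6%. Between the libraries, the S phase list had a median log2 difference of -0.24 in the CNS marker-rich cells, and the G2 and M phase list -0.15. Over all selected cells the signs were the other way, at 0.14 and 0.03.

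Compared with the 3 classes, the selected cells as a whole had 710 genes at least 2-fold higher and 753 at least 2-fold lower than OC90-positive cells in both libraries, of 11487 genes with a CPM of at least 10, or 6.18% and 6.56%. The counts against CDH19-positive cells were 870 higher and 673 lower of 11388 (7.64% and 5.91%), and against STMN2-positive cells 968 and 848 of 11530 (8.4% and 7.35%). The rule held these classes apart by OC90, CDH19 and STMN2, so genes that travel with those 3 were bound to differ. It also required SOX2 and the HES5, SOX1 and PAX6 sum, which the classes did not need. Genes that travel with SOX2 or HES5 were therefore bound to be higher in the selected cells. Whether the genes named below are of that kind was not tested. FAM181A had the largest smallest-ratio over the 3 classes in both libraries among genes with a CPM of at least 20, at 45.0 CPM (GelNB-CH) and 22.4 CPM (Matrigel), where the 3 classes were at 0 to 1.24 CPM. CRB2, a polarity protein of the apical membrane, was at 33.2 and 23.3 CPM against 0.368 to 1.46 CPM. RFX4, a transcription factor of ciliated neural progenitors, was at 306 and 145 CPM against 3.30 to 22.8 CPM. FABP7 (ENSG00000164434, chr6:122779475-122784074) was at 582 and 485 CPM against at most 48.3 CPM, and SOX3 at 56.5 and 34.0 CPM against 0.138 to 5.62 CPM.

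Of the other genes named by that rule, RSPO2 was at 51.5 CPM in GelNB-CH against 69.0 CPM in Matrigel, and the WNT ligand genes WNT10B and WNT3 at 20.8 and 21.5 CPM and at 41.0 and 22.4 CPM. SPARCL1, a secreted glycoprotein of radial glia and astrocytes, was at 249 and 615 CPM, with 738 CPM in the Matrigel cells of sub-clusters 2, 4 and 5. The others reported here were LIX1, CFAP54, ALPK2, C1orf61, PSRC1, CCL2, CDCA3, LRP4, HTRA1 and SOX2-OT, and the last overlaps SOX2, a gene of the rule. In all of these genes the level in the CNS marker-rich sub-clusters was at least 17.0 CPM in both libraries. That lowest value was CCL2 in Matrigel, below its 25.9 CPM over all kept Matrigel cells. In the Matrigel cells of sub-clusters 2, 4 and 5 CCL2 was at 34.1 CPM.

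The position of the CNS marker-rich cells along the neural tube was described by the share of cells with a UMI of genes of each region. PAX3 or PAX7, paired-box factors of the dorsal neural tube and neural crest, had a UMI in 186 of 257 GelNB-CH cells (72.4%, 66.5 to 77.7) and 18 of 32 Matrigel cells (56.3%, 37.7 to 73.6), against 3.15% and 3.46% of OC90-positive cells. EN1 or EN2, engrailed factors of midbrain and anterior hindbrain, had one in 26.5% (21.2 to 32.3) and 31.3% (16.1 to 50.0), against 1.12% and 0.865%. WNT1, a ligand of the dorsal midbrain and isthmus, had one in 17.1% (12.7 to 22.3) and 9.38% (3 of 32 cells), against 0.373% and 0.0910%. OTX2, a factor of forebrain and midbrain, had one in 33.5% (27.7 to 39.6) and 15.6% (5.28 to 32.8), but also in 29.3% and 19.2% of OC90-positive cells, so its share was near that of cells chosen by an otic gene. The OC90-positive cells had median depths of 10580 and 16472 UMIs, and the CNS marker-rich cells 9528 and 15216. PAX3 was not limited to the selected cells. Where only the HES5, SOX1 and PAX6 sum failed, at 0, GelNB-CH had PAX3 at 59.3 CPM (330 cells). Its cells with a sum of 10 or more had 262 CPM. The matching Matrigel levels were 69.1 CPM (204 cells) and 92.5 CPM (34 cells). Shares in CDH19-positive cells are not given here, and whether PAX3 marks neural tube or neural crest was not tested.

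A UMI of any HOX gene was found in 7 of 257 (2.72%, 1.10 to 5.53) and in 5 of 32 cells (15.6%, 5.28 to 32.8), against 0.702% and 1.14% of OC90-positive cells. After thinning to 5000 UMIs the HOX share was 3 of 244 cells (1.23%) and 1 of 32 cells (3.13%), where 13 shallower GelNB-CH cells were left out. The PAX3 or PAX7 share after thinning was 61.9% (55.5 to 68.0) and 37.5% (21.1 to 56.3), and that of EN1 or EN2 was 13.1% and 15.6%. In GelNB-CH, 22 of the 86 cells with OTX2 also had EN1 or EN2, and in Matrigel none of 5 did.

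**Figure D3:**
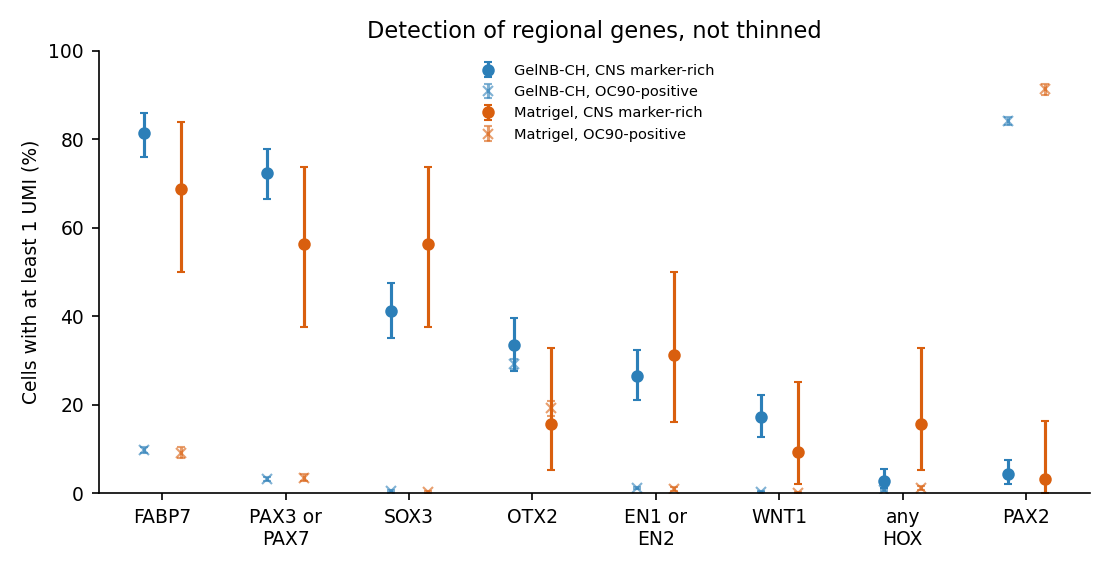
Share of cells with at least 1 UMI (%, vertical axis) of genes of neural tube regions (horizontal axis) in CNS marker-rich cells (circles; 257 GelNB-CH and 32 Matrigel cells) and in OC90-positive cells (crosses); lines are exact Clopper-Pearson 95% intervals and depth is not equalised. PAX3 or PAX7 was found in 72.4% and 56.3% of CNS marker-rich cells, and PAX2 in 84.0% and 91.3% of OC90-positive cells.

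By level, PAX3 was at 256 CPM in GelNB-CH against 151 CPM in Matrigel within the CNS marker-rich cells, a ratio of 1.69 (1.34 to 2.16). OTX2 was at 66.8 and 13.2 CPM (7 counts), a ratio of 5.05 (2.40 to 12.7), and in OC90-positive cells it was at 41.4 and 20.9 CPM. WNT1 was at 38.2 and 15.1 CPM, a ratio of 2.53 (1.23 to 6.01). EN2 was at 25.6 and 30.2 CPM, with a ratio interval of 0.485 to 1.56 that holds 1. EGR2, a hindbrain segment factor that is also an immediate early gene, was at 3.44 CPM in GelNB-CH against 24.6 CPM in Matrigel, 7.15-fold (2.83 to 19.0) higher in Matrigel. Ventral genes were low: of 12 listed, PRDM12 alone reached 10 CPM, at 22.1 and 9.45 CPM.

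The progenitor markers outside the rule also chose the CNS marker-rich sub-clusters, so their values there are a description. Over all selected cells 11 of 20 passed 1.5-fold towards GelNB-CH and 1 towards Matrigel, beside 11.2% and 12.6% of all genes. The median log2 difference of the 20 was 0.59. Of 19 markers with a CPM of at least 10 in the CNS marker-rich cells, 3 passed 1.5-fold towards GelNB-CH and 1 towards Matrigel. Of all genes tested there, 16.7% and 12.5% passed the same fold. These 19 markers had a median log2 difference of -0.05, beside 0.06 over all genes. SOX3 was at 66.8 and 68.0 CPM and NES, an intermediate filament of progenitors, at 264 and 278 CPM. SOX9, a SOXE factor linked to the switch to gliogenesis, was at 225 and 75.6 CPM, a ratio of 2.98 (2.16 to 4.21). SLC1A3, a glutamate transporter of radial glia, was at 188 and 81.3 CPM, 2.32 (1.69 to 3.24). FGFBP3, an FGF binding protein, was at 125 and 265 CPM, 0.472 (0.386 to 0.579). In the list of 15 gliogenic genes 10 reached 10 CPM. Of these, 5 passed 1.5-fold towards GelNB-CH and 1 towards Matrigel, against 16.7% and 12.5% of all genes. Beside SOX9 and SLC1A3, NFIB was at 418 and 232 CPM, CLU at 150 and 69.9 CPM and TNC at 34.4 and 17.0 CPM. SPARCL1 was at 284 and 478 CPM.

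NOTCH pathway genes were described from ligand to target. The ligand genes DLL1 and DLL3, the second a leading gene of sub-cluster 3, were at 26.7 and 9.45 CPM and at 50.0 and 22.7 CPM, ratios of 2.83 (1.16 to 8.98) and 2.21 (1.22 to 4.38), and JAG1 at 135 and 81.3 CPM. The receptor genes NOTCH1 at 75.2 and 60.5 CPM, NOTCH2 at 49.6 and 54.8 CPM and NOTCH3 at 34.4 and 37.8 CPM all had ratio intervals that held 1. Of the targets, HES1 was at 686 and 720 CPM, HEY1 at 365 and 423 CPM and HES4 at 329 and 236 CPM. Of 17 genes of the list that reached 10 CPM, 4 passed 1.5-fold towards GelNB-CH and 1 towards Matrigel. Over all 10360 genes tested in these cells 16.7% and 12.5% passed the same fold.

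Among other pathways, genes of retinoic acid handling stood on both sides. CYP26A1 (a retinoic acid degrading enzyme) was at 42.4 CPM in GelNB-CH against 5.67 CPM (3 counts) in Matrigel, a ratio of 7.47 (2.49 to 36.8). STRA6, a receptor for retinol uptake, was at 1.91 and 22.7 CPM, 11.9-fold (3.90 to 43.0) higher in Matrigel. The hedgehog receptor and target PTCH1 was at 26.0 and 64.3 CPM, a ratio of 0.404 (0.264 to 0.629), and 4 of the 10 hedgehog genes that reached 10 CPM passed 1.5-fold towards Matrigel and 0 towards GelNB-CH. ID1, a BMP target, was at 882 and 1293 CPM, 0.683 (0.627 to 0.744), while 1 of 14 BMP genes passed 1.5-fold. FGFR2, a receptor of FGFs, was at 87.0 and 32.1 CPM, a ratio of 2.71 (1.66 to 4.73), and of 13 FGF receptor and feedback genes 1 passed 1.5-fold towards GelNB-CH and 2 towards Matrigel. Of 11 genes of WNT feedback and targets, 2 passed 1.5-fold towards GelNB-CH and 1 towards Matrigel, with AXIN2 at 13.4 and 13.2 CPM. Beside these pathway counts, 16.7% of all genes tested in the CNS marker-rich cells passed 1.5-fold towards GelNB-CH and 12.5% towards Matrigel.

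Between the libraries, over all cells that met the rule, 422 of 10505 genes with a CPM of at least 10 passed 2-fold towards GelNB-CH (4.02%) and 588 towards Matrigel (5.6%). In the CNS marker-rich cells alone the counts were 667 (6.44%) and 522 (5.04%) of 10360, which rest on 32 Matrigel cells. The gene lists overlapped in part: 227 genes higher in GelNB-CH were on both, 53.8% of the first list and 34.0% of the second, and 197 higher in Matrigel, 33.5% and 37.7%. The cells of the CNS marker-rich sub-clusters are contained in the selected cells, so the lists are not independent.

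Many of the 24 genes with the largest ratios were under 10 CPM in the CNS marker-rich cells. On the GelNB-CH side HAPLN1 was at 80.7 CPM (260 counts) and 2.69 CPM (3 counts), and MATN1 and ACAN at 72.7 and 2.69 CPM and 41.9 and 2.69 CPM, but all 3 were under 10 CPM in the CNS marker-rich cells. KLF2, a flow-responsive transcription factor, had 65 counts in GelNB-CH and 0 in Matrigel, at least 7.51-fold higher against a floor of 3 counts over the Matrigel cells, with an exact interval from 5.93 that also covers the counting error in GelNB-CH. It was at 384 CPM in sub-cluster 2, with 1 count in the GelNB-CH CNS marker-rich cells. Of the 12 genes named on this side, 7 also passed 2-fold in the CNS marker-rich cells and 5 were under 10 CPM there. Of the 12 named on the Matrigel side, 2 were at least 2-fold higher there (NDUFA4L2 and KANK4) and 10 were under 10 CPM. Those 10 were MROH9, ISL1, ABCA10, ALDH1A3, PPP1R14A, VEGFD, RAPGEF5, ITGA8, BRINP1 and TBX2-AS1. ALDH1A3, a retinoic acid producing enzyme, was at 5.90 and 75.3 CPM in all selected cells and at 2.29 and 1.89 CPM in the CNS marker-rich cells.

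Within the CNS marker-rich cells, most genes with the largest ratios towards GelNB-CH rest on 1 Matrigel count. NEFL, a neurofilament, was at 32.8 and 3.78 CPM (86 and 2 counts), a ratio of 8.69 (2.33 to 72.9). PTPRT, a receptor phosphatase, was at 27.5 and 1.89 CPM (72 and 1 counts), a ratio of 14.5 (2.53 to 582). BRINP3 was at 59.6 and 7.56 CPM. It was also 6.46-fold higher in GelNB-CH over all kept cells. TAL2, a bHLH factor of the midbrain, was at 22.1 and 1.89 CPM (58 and 1 counts), with a ratio of 11.7 and a counting interval of 2.02 to 471. PCP4 was at 43.9 and 1.89 CPM, a ratio of 23.2 (4.09 to 926), and RPRM at 50.4 and 1.89 CPM, a ratio of 26.7 (4.70 to 1061), each on 1 Matrigel count.

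On the Matrigel side NDUFA4L2 (ENSG00000185633, chr12:57234903-57240715), a hypoxia-induced mitochondrial protein, was at 3.05 CPM in GelNB-CH against 66.1 CPM in Matrigel, 21.7-fold (9.87 to 54.0) higher, and 2.17-fold higher over all kept cells. H19, an imprinted non-coding RNA, was at 3.44 and 58.6 CPM, 17.1-fold (7.92 to 40.7) higher, while over all kept cells its ratio was 0.570. KCNIP4, a potassium channel interacting protein, was at 29.4 and 249 CPM, 8.49-fold (6.36 to 11.4) higher. DSCAM, an adhesion molecule of neurites, was at 6.11 and 34.0 CPM, and SPP1, a secreted phosphoprotein, at 2.67 and 26.5 CPM on 7 and 14 counts.

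Hypoxia and glycolysis genes were higher in Matrigel across the list. In all selected cells 22 of 25 listed genes reached 10 CPM, 21 of these were higher in Matrigel and 17 at least 1.5-fold, and the median log2 difference was -1.04, beside 0.01 over all genes, of which 12.6% were at least 1.5-fold higher in Matrigel. LDHA, lactate dehydrogenase, was at 272 CPM in GelNB-CH against 592 CPM in Matrigel, 2.18-fold higher. PGK1, a glycolytic kinase, was at 144 and 304 CPM. BNIP3, a mitophagy receptor induced by HIF, was at 113 and 281 CPM, 2.49-fold higher. The glucose transporter SLC2A1 was at 12.7 and 27.8 CPM and VEGFA at 14.9 and 27.8 CPM, and SLC2A3 was the 1 gene on the other side, at 46.9 and 45.7 CPM. In the CNS marker-rich cells 17 of 18 genes were higher in Matrigel, 14 of them at least 1.5-fold, against 12.5% of all genes. With sub-clusters 0 and 1 only, the median was -0.89.

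That difference was uneven among cells. The summed list was at a median of 10.2 UMIs per 10000 in the 257 GelNB-CH CNS marker-rich cells (lowest 1.39, highest 86.0) and 14.8 in the 32 Matrigel cells (lowest 2.51, highest 119). Of the Matrigel cells, 4 were above the highest GelNB-CH cell and held 43.7% of the list's UMIs. The summed list was at 1353 CPM in GelNB-CH against 2725 CPM in Matrigel, 2.01-fold (1.89 to 2.14) higher, and at 1733 CPM without those 4 cells, 1.28-fold, an alternative chosen after the data were seen. By sub-cluster it was 2.21-fold higher in Matrigel in sub-cluster 0 and 1.86-fold in sub-cluster 1. Outside the selected cells the summed list was 1.84-fold higher in Matrigel in OC90-positive cells, 1.47-fold in STMN2-positive cells, 1.06-fold in CDH19-positive cells and 1.38-fold over all kept cells. Per cell, the median in CDH19-positive cells lay the other way, at 9.13 in GelNB-CH and 7.77 in Matrigel.

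Heat shock genes were higher in GelNB-CH. All 14 listed genes were higher in GelNB-CH in the selected cells, 9 at least 1.5-fold, with a median log2 difference of 0.73, where 11.2% of all genes were at least 1.5-fold higher. HSPA1A (chr6:31815464-31817946), an inducible HSP70 gene, was at 477 CPM in GelNB-CH against 89.6 CPM in Matrigel, 5.32-fold (4.34 to 6.58). Its near-identical copy HSPA1B was at 183 and 30.5 CPM, and how reads were divided between them is uncertain. DNAJB1, an HSP40 cochaperone, was at 346 and 61.8 CPM, 5.59-fold (4.38 to 7.24), HSPH1 at 216 and 62.7 CPM, and HSP90AA1 at 2608 and 1210 CPM. HSPA6 was at 27.3 and 3.58 CPM. In the CNS marker-rich cells it had 71 and 0 counts, at least 4.78-fold higher against the same floor, with an exact interval from 3.79.

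Per cell, the summed heat shock list was at a median of 71.1 UMIs per 10000 in GelNB-CH CNS marker-rich cells (lowest 23.7, highest 285) and 44.9 in Matrigel (26.3 to 108), and the groups overlapped. In GelNB-CH 46 cells were above the highest Matrigel cell and held 32.8% of the list's UMIs, and without them the sum was 1.32-fold higher. With all cells its sum was 1.61-fold (1.55 to 1.68) higher in GelNB-CH, against 1.16-fold in OC90-positive cells, 1.69-fold in CDH19-positive cells, 1.89-fold in STMN2-positive cells and 1.32-fold over all kept cells. Cells were held 90 min in Accutase before sorting, per the labels, and the part of that handling in either list was not tested.

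**Figure D4:**
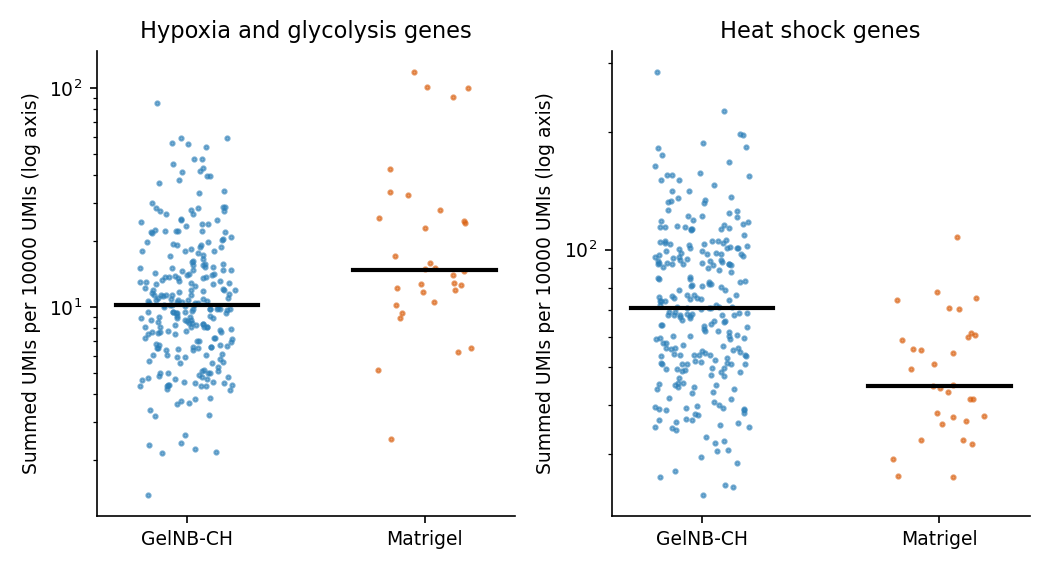
Summed UMIs per 10000 UMIs of the cell (log axis) for the hypoxia and glycolysis genes (left) and the heat shock genes (right) in CNS marker-rich cells; each point is 1 of 257 GelNB-CH or 32 Matrigel cells and black lines are medians. The medians are 10.2 and 14.8 for hypoxia and glycolysis, where 4 Matrigel cells lie above every GelNB-CH cell, and 71.1 and 44.9 for heat shock.

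**Figure D5:**
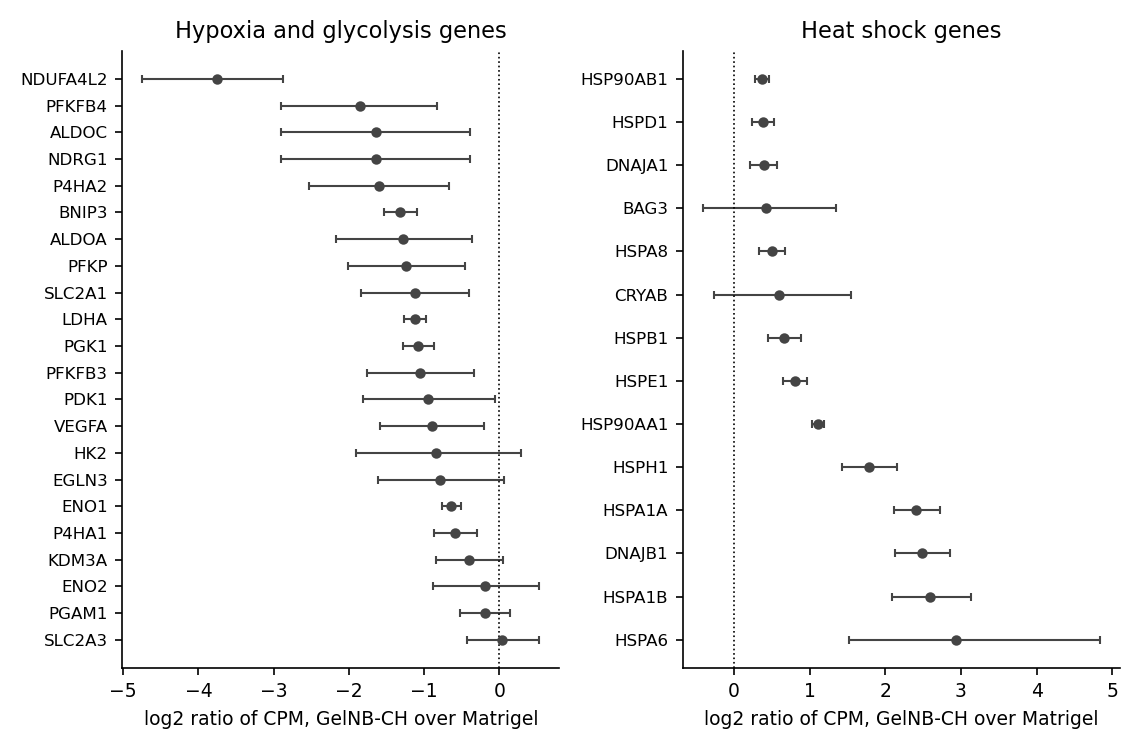
log2 ratio of CPM, GelNB-CH over Matrigel (horizontal axis), for each hypoxia and glycolysis gene (left) and heat shock gene (right) with a CPM of at least 10 in the cells that met the rule; points are ratios and lines exact 95% counting intervals, and the dotted line marks equal levels. SLC2A3 is the 1 hypoxia gene right of the line, and all 14 heat shock genes lie right of it.

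Short promoter sequences from both lists are shown because most members of each list differed in the same direction between the libraries. ACGTG is the core of the hypoxia response element and GAANNTTC a pair of inverted heat shock element units, and both strands were searched in the 250 bases before the start of each gene in RefSeq (GRCh38.p14), where CACGTG counts as 2 overlapping matches. ACGTG was found in 10 of the 21 hypoxia and glycolysis promoters matched by symbol (47.6%) and in 18.5% of all 35116 promoters. GAANNTTC was found in 6 of 13 heat shock promoters (46.2%) and in 5.78% of all. A match is a description of letters and not a bound site, and the windows below are 80 bases, 5′ to 3′ on the gene's strand, with the matches in capitals.
ALDOC (chr17:28577056-28577135, minus strand): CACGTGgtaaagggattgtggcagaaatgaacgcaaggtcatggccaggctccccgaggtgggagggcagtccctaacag
BNIP3 (chr10:131982018-131982097, minus strand): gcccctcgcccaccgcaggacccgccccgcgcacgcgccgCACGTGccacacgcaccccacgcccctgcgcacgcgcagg
HSPA6 (chr1:161524360-161524439, plus strand): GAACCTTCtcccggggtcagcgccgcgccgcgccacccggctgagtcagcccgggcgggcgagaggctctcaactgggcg
HSPA1B (chr6:31827593-31827672, plus strand): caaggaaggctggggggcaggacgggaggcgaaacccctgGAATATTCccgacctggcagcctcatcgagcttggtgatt
These are, in each list, the 2 genes with the larger ratios between the libraries among those with a match, more than 3 counts in both libraries and a CPM of at least 10 in 1 of them. ALDOC, a brain aldolase, was at 3.73 CPM in GelNB-CH against 11.6 CPM in Matrigel (12 and 13 counts). The ALDOC window shows 2 of its 3 matches and the HSPA6 window 1 of 2.

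Markers of other cell types were low but not at 0 in the CNS marker-rich cells. The summed list of 15 otic markers was at a median of 1.14 UMIs per 10000 in GelNB-CH (0 to 12.2) and 1.17 in Matrigel (0 to 12.5), against 8.66 and 12.1 in the other sub-clusters. The 12 peripheral glia markers were at medians of 1.09 (0 to 50.8) and 2.47 (0 to 35.1), with CDH19 at 0 by the rule and SOX10, a factor of glia and otic epithelium, at 3.82 and 18.9 CPM (10 counts in each). The 10 neuronal markers were at 5.16 (0 to 36.3) and 5.61 (0 to 20.4). OC90 was at 27.5 and 17.0 CPM, against 4219 and 3509 CPM in OC90-positive cells. The part of these transcripts in the differences between the libraries was not tested.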

How the data were processed

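The authors deposited UMI counts, whole numbers per gene and cell barcode and not normalised, made with Cell Ranger (7.1.0 per the file headers, 4.0.0 per the labels' protocols). STAR and GRCh38 are named in the submitters' processing notes. The matrices hold 36601 genes, of which 34616 matched GENCODE by identifier. Library totals were 247006223 UMIs in GelNB-CH and 178672097 in Matrigel.

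Counts were summed over the cells of a library and scaled to CPM. Ratios have exact conditional binomial intervals and shares exact Clopper-Pearson intervals. List medians use log2(CPM + 1), which understates low genes. Sub-clusters came from scanpy 1.11.5 (2000 variable genes, 20 components, 15 neighbours, Leiden resolution 0.5). Cell doublet calls came from Scrublet and were kept in the main results. TMM factors came from edgeR 4.0.16, as an alternative. The computation was tested on simulated data.

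The members and lists were chosen with earlier results of these data known. Named genes were the 12 largest ratios in each direction whose larger CPM reached 20 and whose interval left out 1.5-fold, the 20 genes with the largest smallest-ratio over the 3 classes, and members of the lists, leaving out mitochondrial, ribosomal protein, sex-specific, clone-named and rule genes. The same rule was applied to the CNS marker-rich cells after the data were seen. Alternatives changed the cell filter, the rule's limits, depth, scaling, doublets, make-up, cycling cells, minimum, pseudocount and clustering. Strand settings of the counting are not given in the sources used here. Some genes are not reported here.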

Additional observations from a re-analysis of the deposited data

Results flagged for a closer look

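KCNIP4 differed in opposite directions between the libraries in 2 kinds of cells. In the CNS marker-rich cells it was at 29.4 CPM in GelNB-CH against 249 CPM in Matrigel, a log2 difference of -3.04. In the OC90-positive cells it was at 322 and 153 CPM, a log2 difference of 1.07. The difference between the 2 kinds of cells was not tested, since each group is 1 library, and in the CNS marker-rich cells the values rest on 77 and 132 counts.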

How the results depend on the processing

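Of the main values, 84 stayed within the limits set for them and 31 moved. These were the ratio of shares, gene counts, sub-cluster numbers and percents, and the hypoxia and heat shock medians. Gene counts, sub-cluster numbers and percents could only stay or move. The ratio and the medians could also reverse, and none did. Among the other lists and single genes, 516 values stayed, 207 moved and 10 reversed. The ratio of shares was 2.13 to 3.17 under the other cell filters, depths, doublet removal and limits on HES5, SOX1 and PAX6, 3.50 with stricter OC90, COL1A2 and STMN2 limits, 3.96 in CNS marker-rich sub-clusters only, 3.87 in sub-clusters 0 and 1 only and 1.29 with no limits on other markers, the last 3 chosen after seeing the data. Genes at least 2-fold higher in GelNB-CH (422) numbered 789 with the stricter limits, 1108 in cells of 8000 to 16000 UMIs, 1005 in cells without cycle genes, 667 in CNS marker-rich sub-clusters, 728 in sub-clusters 0 and 1, 252 with a CPM of at least 20 and 2126 with no minimum. Those higher in Matrigel (588) numbered 905, 979, 318 and 1750 for the depth range, the cells without cycle genes, the CPM of at least 20 and no minimum. The hypoxia and glycolysis median (-1.04) was -0.97 with the stricter limits, -1.13 in the depth range, -1.11 as a mean of per-cell CPM, -0.74 at equal sub-cluster make-up, -1.28 without cycle genes, -0.89 in sub-clusters 0 and 1 and -0.86 with a pseudocount of 5. The heat shock median (0.73) was 0.77 with 2 UMIs of HES5, SOX1 and PAX6, 0.79 with TMM scaling and 0.98 without cycle genes. At 4-fold, genes higher and lower numbered 278 and 280 against OC90-positive, 321 and 291 against CDH19-positive, and 367 and 320 against STMN2-positive cells; a higher fold passes fewer genes by construction.

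Reversed values among single genes, and lists of at least 1.5-fold, were PCP4 at -0.14 with 2 UMIs of HES5, SOX1 and PAX6, the forebrain list (-2.19, 3 genes) at 0.86 in the depth range and 0.55 without cycle genes, and the dorsal list (0.59) at -0.13 without cycle genes. In CNS marker-rich cells only, MATN1 was at -0.26, ABCA10 at 1.54 and ALDH1A3 at 0.19, and in sub-clusters 0 and 1 only at -0.23, 1.63 and 0.21. Of 22 lists under 1.5-fold, 15 changed sign under at least 1 alternative, and these are not counted as reversed. The midbrain and isthmus list (0.54) was at -0.80 with doublets removed, -0.87 with 5 UMIs of HES5, SOX1 and PAX6 and -0.30 without cycle genes, and the ATF4 stress list (-0.33) at 0.26 in CNS marker-rich cells. The cause was not tested. Leaving out a replicate was not possible with 1 library per group. No paired analysis was possible because each group has 1 library. The 32 Matrigel cells of the CNS marker-rich sub-clusters hold 529154 UMIs, so genes near 2 CPM there rest on 1 count.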

Other observations

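Sterol synthesis genes were higher in Matrigel in the CNS marker-rich cells, where 15 of 16 listed genes had the higher level in Matrigel and 4 were at least 1.5-fold higher, with a median log2 difference of -0.41. Of all genes tested in these cells, 12.5% passed 1.5-fold towards Matrigel. HMGCS1, an early enzyme of the pathway, was at 334 CPM in GelNB-CH against 452 CPM in Matrigel, CYP51A1 at 173 and 293 CPM and LSS at 23.7 and 52.9 CPM. The direction differed by sub-cluster. The median was -0.92 in sub-cluster 0 (117 and 15 cells) and -1.11 in sub-cluster 5 (30 and 17 cells), but 0.10 in the cycling sub-cluster 1 (111 and 14 cells). In OC90-positive cells it was 0.20, with 14 of 16 genes higher in GelNB-CH.

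Chaperones of the endoplasmic reticulum were higher in GelNB-CH in 12 of 15 listed genes in the CNS marker-rich cells, 5 of them at least 1.5-fold, with a median log2 difference of 0.27. Of all genes tested in these cells, 16.7% passed 1.5-fold towards GelNB-CH. Mitochondrially encoded transcripts were at 27731 CPM in GelNB-CH against 22995 CPM in Matrigel in these cells when summed, 1.21-fold (1.18 to 1.23) higher in GelNB-CH. The ratio was 1.39 in OC90-positive cells, 1.38 in STMN2-positive cells, 0.894 in CDH19-positive cells and 1.10 over all kept cells. Immediate early genes had a median of -0.45 in the CNS marker-rich cells, -0.51 in sub-cluster 4 and -0.33 in sub-cluster 5.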
